A study of Mus musculus with 12 samples.

Results

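The lipogenic genes described here are 10 genes of fatty acid and triglyceride synthesis and its control in the mouse liver, namely Srebf1, Insig2, Fasn, Acaca, Acly, Scd1, Elovl6, Me1, Thrsp and Gpam. They were taken by symbol from the 55414 genes of the deposited counts, each matched to 1 Ensembl identifier, and all 10 were among the 13857 genes that passed the filter on low counts and were tested. The livers came from 12 female C57Bl/6J mice, 8 to 12 weeks old per the study's methods, in 4 groups of 3. Mice first received an intraperitoneal injection of NaCl (0.9%) or of FeSO4 at 300 mg/kg. The study uses this dose of iron as a model of acute iron overload. It reports lethal shock at this dose, with hypothermia and raised serum markers of organ injury at 8 h. All mice received PBS or dexamethasone (DEX, a synthetic glucocorticoid) at 10 mg/kg 6 h after the first injection. The livers were taken after another 2 h, thus 8 h after the first injection. The groups are called NaCl/PBS, NaCl/DEX, FeSO4/PBS and FeSO4/DEX. The design asks what iron does to these genes, what DEX does to them, and whether the DEX response is the same after iron.

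De novo lipogenesis turns surplus carbohydrate into fatty acids. ATP citrate lyase (Acly) makes cytosolic acetyl-CoA, malic enzyme (Me1) supplies NADPH, acetyl-CoA carboxylase (Acaca) makes malonyl-CoA and fatty acid synthase (Fasn) makes palmitate from it. Elovl6 elongates palmitate to stearate, Scd1 introduces a double bond, and Gpam (mitochondrial glycerol-3-phosphate acyltransferase) starts glycerolipid synthesis with the products. Insulin switches the genes of these enzymes on through the SREBP transcription factor encoded by Srebf1. The INSIG proteins, of which Insig2 encodes one, hold SREBP inactive in the endoplasmic reticulum. Thrsp (Spot 14) is a small nuclear and cytosolic protein that responds to thyroid hormone and carbohydrate and promotes lipogenesis. Glucocorticoids act on this programme together with insulin and also through direct binding of the glucocorticoid receptor (GR) near target genes.

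Promoter sequences are shown for Insig2, Thrsp, Srebf1 and Elovl6, the genes whose levels differed most between the groups. Each is the 250 bases before the start farthest upstream in RefSeq on GRCm38.p6, written 5′ to 3′ on the strand of the gene. Capitals mark exact matches on either strand to the NF-Y box CCAAT or the GR hexamer AGAACA.
Insig2, chr1:121332590-121332839, minus strand: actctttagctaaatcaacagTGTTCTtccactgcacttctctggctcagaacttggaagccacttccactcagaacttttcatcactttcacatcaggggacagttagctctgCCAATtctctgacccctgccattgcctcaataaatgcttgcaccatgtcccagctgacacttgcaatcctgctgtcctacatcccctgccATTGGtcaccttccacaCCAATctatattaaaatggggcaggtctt
Thrsp, chr7:97417551-97417800, minus strand: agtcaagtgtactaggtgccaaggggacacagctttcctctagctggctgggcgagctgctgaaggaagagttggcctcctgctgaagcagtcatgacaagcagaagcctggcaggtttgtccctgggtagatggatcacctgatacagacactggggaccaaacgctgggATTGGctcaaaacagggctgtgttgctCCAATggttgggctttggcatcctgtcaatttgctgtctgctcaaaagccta
Srebf1, chr11:60222582-60222831, minus strand: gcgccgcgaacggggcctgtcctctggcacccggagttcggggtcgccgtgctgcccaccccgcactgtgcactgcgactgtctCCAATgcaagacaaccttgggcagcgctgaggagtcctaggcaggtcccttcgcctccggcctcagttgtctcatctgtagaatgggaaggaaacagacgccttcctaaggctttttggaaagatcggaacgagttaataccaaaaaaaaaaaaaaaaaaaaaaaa
Elovl6, chr3:129532136-129532385, plus strand: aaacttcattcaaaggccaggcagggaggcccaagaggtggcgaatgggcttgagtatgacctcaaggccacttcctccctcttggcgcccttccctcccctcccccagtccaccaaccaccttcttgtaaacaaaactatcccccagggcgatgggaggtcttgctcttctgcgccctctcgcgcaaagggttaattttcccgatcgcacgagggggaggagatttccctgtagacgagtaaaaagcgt
The Insig2 window held 1 GR hexamer at 229 to 224 bases before the start and 3 NF-Y boxes, the Thrsp window held 2 NF-Y boxes, the Srebf1 window held 1, and in the Elovl6 window none of the searched letters were found. RefSeq gave promoters for 9 of the 10 genes, 15 in all. The GR hexamer was in 2 of these 15 windows (Insig2 and Acaca) and in 16.1% of all 32851 promoter windows of the same length. The NF-Y box was in 7 of them against 33.8% of all windows. The sterol regulatory element core CACCCCAC was in 1 (Gpam) against 2.58%, and the E-box CACGTG in none against 6.02%. None of the matches shown overlap each other. RefSeq lists 3 starts each for Insig2 and Srebf1, and the counts per gene do not tell which start a read came from.

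Totals per library lay between 16335651 and 23827340 counted reads with a median of 19602514, and the precision was limited by the 3 mice per group more than by this depth. All 11 hepatocyte markers with a row in the counts were expressed in every group. They summed to between 2150900 and 2498780 normalized counts in NaCl/PBS mice and to between 2747980 and 3100600 in FeSO4/PBS mice, with 6 called higher and 0 lower after FeSO4. Macrophage markers summed to between 6389 and 7546 normalized counts in NaCl/PBS mice and to between 3842 and 4406 in FeSO4/PBS mice, with 0 higher and 7 lower of 8. Neutrophil markers summed to between 119 and 299 and to between 812 and 969, with 6 higher and 0 lower of 7 tested. Adipocyte markers summed to between 284 and 293 and to between 675 and 885, with 3 higher of 3 tested (Fabp4, Cidea and Pparg), but 5 defining ones (Adipoq, Plin1, Lep, Retn and Cfd) had between 0 and 10 reads in any library and were not tested. Over all tested genes, 27.2% were called higher and 27.3% lower in the same comparison (FeSO4/PBS against NaCl/PBS). Of 8 endothelial markers 3 were higher and 3 lower, and of 8 stellate cell markers 1 and 1. Whether these cells had a part in the results below was not tested, and in bulk liver fewer cells of a type and less RNA per cell cannot be told apart. TMM factors lay between 0.87 and 1.16. With scaling by library size alone, the median log2 fold change (LFC) of all tested genes was -0.34 for FeSO4/PBS against NaCl/PBS, -0.18 for NaCl/DEX against NaCl/PBS and -0.18 for FeSO4/DEX against NaCl/DEX, in place of -0.02, -0.02 and 0.01 with TMM.

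After FeSO4 the 10 genes did not move as 1 block. In FeSO4/PBS against NaCl/PBS mice, Insig2, Thrsp, Scd1, Me1 and Fasn rose, Elovl6 fell, and Srebf1, Acaca, Acly and Gpam did not pass the test. A gene is called here when the Benjamini-Hochberg adjusted p of edgeR's quasi-likelihood test over all tested genes was 0.05 or less. Thus 5 genes were higher and 1 was lower, where 27.2% of all tested genes were called higher and 27.3% lower. With library size alone, all tested genes split into 2285 higher and 5829 lower, against 3770 and 3783 with TMM. DEX in NaCl mice raised Insig2 and Thrsp and lowered Srebf1, so that 2 genes were higher and 1 lower, against 6.5% and 7.15% of all tested genes. The corresponding split of all tested genes was 901 higher and 991 lower, and 618 and 1776 with library size alone. Both comparisons use the same NaCl/PBS mice.

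In mice that had received FeSO4, none of the 10 passed the test for a DEX effect. Between FeSO4/DEX and FeSO4/PBS mice, edgeR called 0 of them higher and 0 lower, where 0% of all tested genes were called in either direction. At an unadjusted p below 0.05 edgeR had 1 of the 10 (Srebf1) and 900 of all tested genes, and DESeq2 called 0 of the 10, with 5 genes higher and 4 lower in all. Their LFCs in this comparison lay between -0.37 and 0.54. Between FeSO4/DEX and NaCl/DEX mice, Srebf1 and Gpam were higher and Elovl6 was lower, thus 2 and 1 genes, against 22.4% and 20.9% of all tested genes (3103 and 2902, or 2151 and 4146 with library size alone). For FeSO4 the 10 genes had a median LFC of 0.46, with 0.16 after DEX in NaCl mice, -0.06 after DEX in FeSO4 mice and 0.19 for FeSO4/DEX against NaCl/DEX, and that of all tested genes lay between -0.02 and 0.01.

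**Figure D1:**
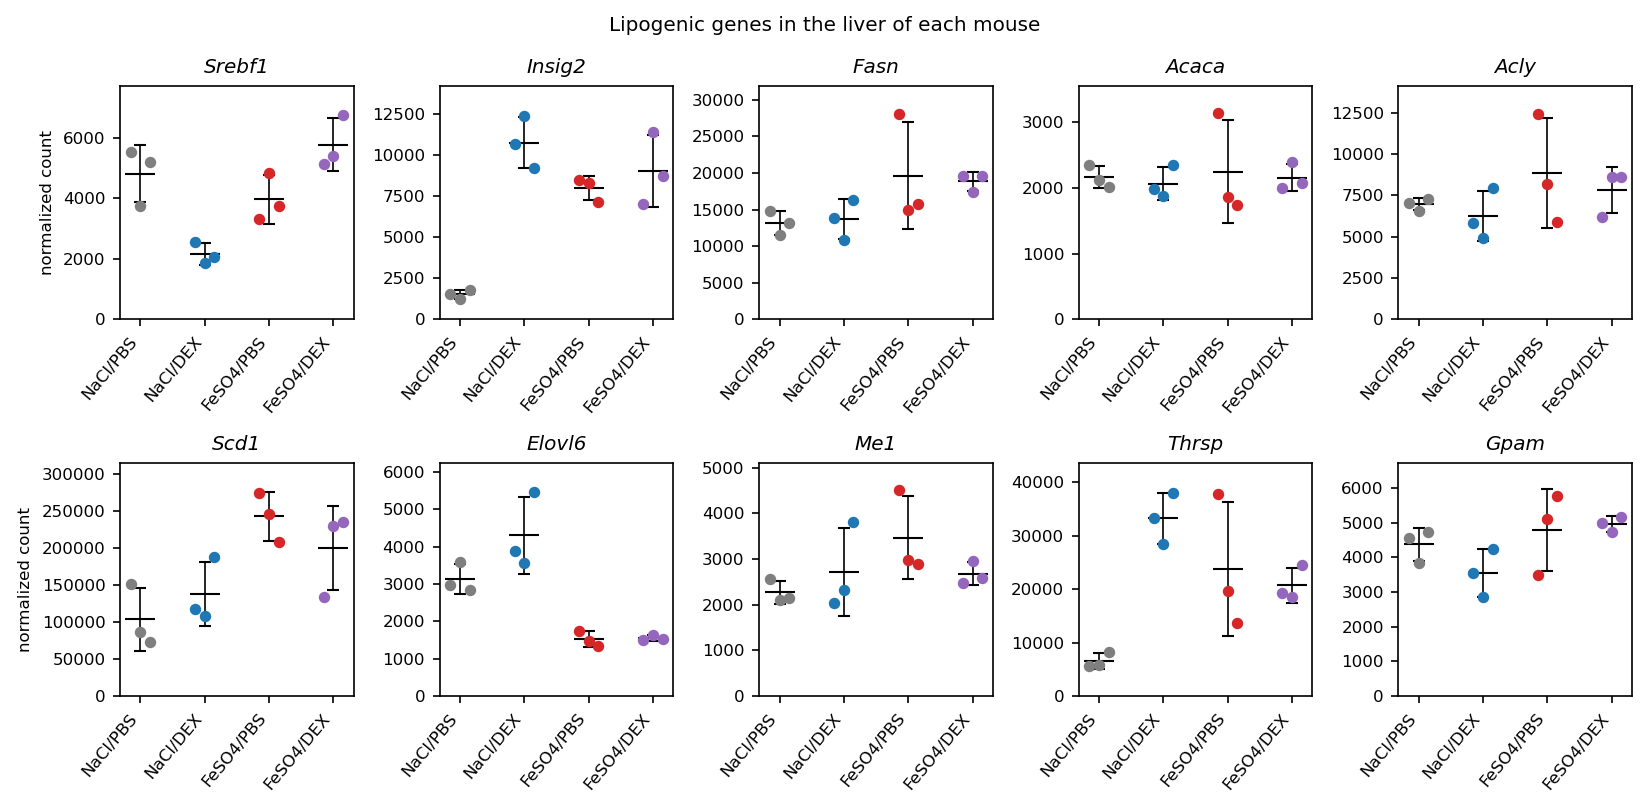
Normalized counts (TMM-scaled, vertical axes from 0) of the 10 lipogenic genes in each of the 12 mice, with 1 point per mouse and bars for the mean ± SD of each group of 3. Insig2 and Thrsp were lowest in all 3 NaCl/PBS mice, Srebf1 in all 3 NaCl/DEX mice, and Elovl6 in all 6 FeSO4 mice.

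Insig2 (ENSMUSG00000003721, chr1:121181760-121260400, minus strand, GRCm39) was the member with the largest rise after either agent. Its normalized counts were 1557, 1235 and 1809 in NaCl/PBS mice, 10682, 12361 and 9235 in NaCl/DEX mice, 8511, 8289 and 7161 in FeSO4/PBS mice and 7014, 11379 and 8725 in FeSO4/DEX mice. Every mouse that had received DEX, FeSO4 or both thus lay above all NaCl/PBS mice, and the FeSO4/DEX mice overlapped both singly treated groups. The rise was 7.01-fold after DEX in NaCl mice (LFC 2.81 ± 0.19 SE, adjusted p = 6.8e-07) and 5.21-fold after FeSO4 (LFC 2.38 ± 0.19 SE, adjusted p = 3.3e-07). DEX given after FeSO4 had an LFC of 0.18 ± 0.18 (SE, adjusted p = 0.88). Between FeSO4/DEX and NaCl/DEX mice the LFC was -0.25 ± 0.18 (SE, adjusted p = 0.28), and it was called at -0.46 with library size alone (adjusted p = 0.042) and at -0.49 without FeSO4/DEX mouse 2 (adjusted p = 0.047). The DEX response was smaller in FeSO4 mice than in NaCl mice by an LFC of -2.63 ± 0.26 (SE, adjusted p = 5.8e-05), and this held with each of the 12 mice left out.

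Srebf1 (ENSMUSG00000020538, chr11:60089913-60113407, minus strand) went the other way after DEX. Its normalized counts were 5520, 3732 and 5196 in NaCl/PBS mice, 2574, 1863 and 2054 in NaCl/DEX mice, 3306, 4848 and 3734 in FeSO4/PBS mice and 5131, 5410 and 6761 in FeSO4/DEX mice. All NaCl/DEX mice were below all other mice, and the FeSO4/PBS and NaCl/PBS mice overlapped. DEX lowered Srebf1 in NaCl mice to 0.449 times the NaCl/PBS level (LFC -1.15 ± 0.19 SE, adjusted p = 0.00078). The FeSO4/DEX mice were all above those without DEX, but the LFC of 0.54 ± 0.18 (SE) did not pass the test (adjusted p = 0.71, unadjusted p = 0.011); it was called only without a filter on low counts (LFC 0.53, adjusted p = 0.034). They were also above the NaCl/DEX mice, by 2.67-fold (LFC 1.41 ± 0.19 SE, adjusted p = 4.1e-05). The DEX responses with and without FeSO4 differed by an LFC of 1.70 ± 0.26 (SE, adjusted p = 0.0017), and no mouse left out changed that call. For FeSO4 alone the LFC was -0.28 ± 0.18 (SE, adjusted p = 0.21), and it was -0.60 and called with scaling by library size alone. The exons of Srebf1 share 114 bases with Rai1 on the opposite strand, which had 4547 reads in all libraries against 50171 for Srebf1. The libraries were stranded, and whether the counting used the strand is not given in the sources used here.

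Thrsp (ENSMUSG00000035686, chr7:97062139-97066937, minus strand) rose after each agent, as Insig2 did. Its normalized counts were 5643, 5821 and 8283 in NaCl/PBS mice, 33335, 28428 and 38020 in NaCl/DEX mice, 37729, 19686 and 13716 in FeSO4/PBS mice and 19207, 18430 and 24422 in FeSO4/DEX mice. No treated mouse came down to the NaCl/PBS range, and the FeSO4/PBS mice were the most spread, with an SD of 12502 around a mean of 23710. Thrsp rose 5.05-fold after DEX in NaCl mice (LFC 2.34 ± 0.30 SE, adjusted p = 0.00012) and 3.60-fold after FeSO4 (LFC 1.85 ± 0.29 SE, adjusted p = 0.00013). Without FeSO4/PBS mouse 1, the highest of its group, the LFC after FeSO4 was 1.35 and still called. After FeSO4, DEX had an LFC of -0.20 ± 0.28 (SE, adjusted p = 0.92), and the difference of the DEX responses was -2.53 ± 0.41 (SE, adjusted p = 0.0022). The FeSO4/DEX mice were all below the NaCl/DEX mice with an LFC of -0.69 ± 0.28 (SE, adjusted p = 0.066), which passed the test with DESeq2 (adjusted p = 0.035), with library size alone (adjusted p = 0.018), without a filter on low counts (adjusted p = 1.1e-05) and with these libraries alone (adjusted p = 0.0034).

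**Figure D2:**
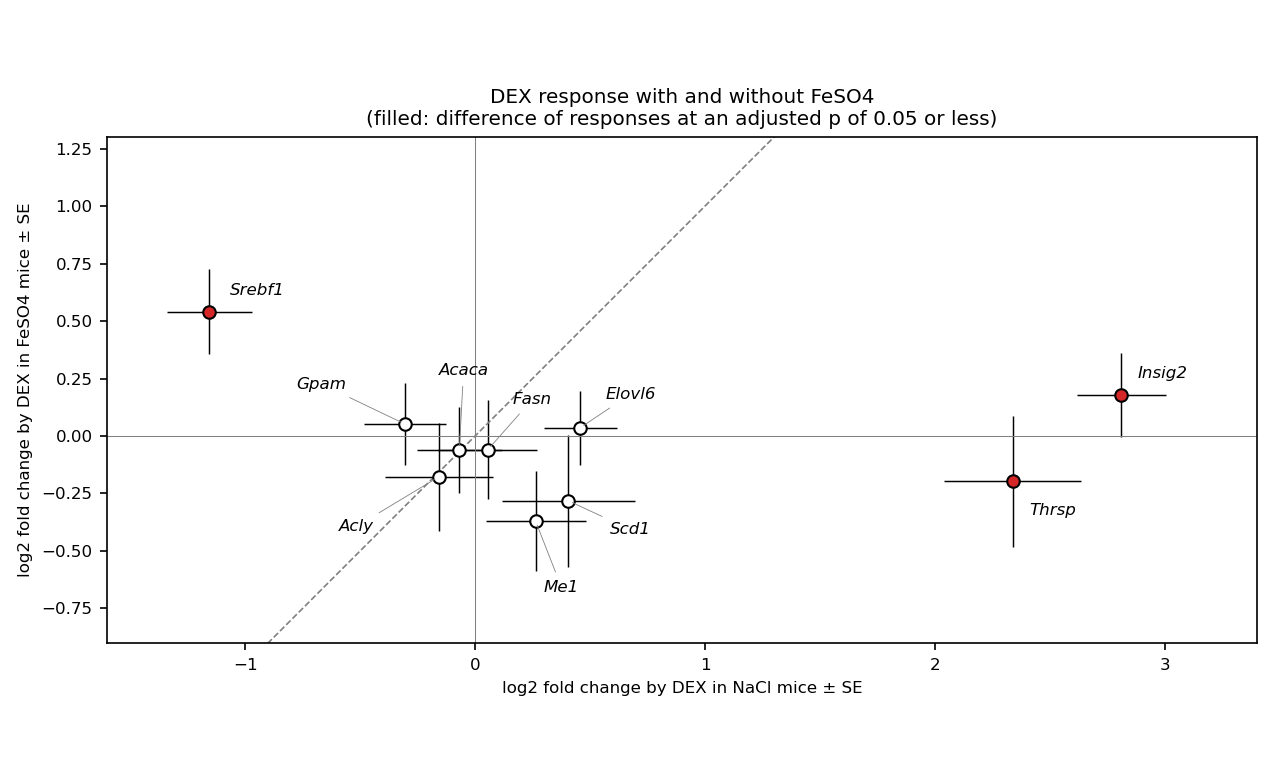
LFC by DEX in NaCl mice (horizontal axis) against LFC by DEX in FeSO4 mice (vertical axis) for the 10 lipogenic genes, each ± SE; the dashed line marks equal responses. Insig2 and Thrsp at 2.81 and 2.34 on the horizontal axis lie near 0 on the vertical one, and Srebf1 at -1.15 lies at 0.54.

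Of the enzymes that supply substrates, Acly (ENSMUSG00000020917, chr11:100367165-100440756, minus strand) did not pass the test in any comparison. Its normalized counts were 7070, 6587 and 7257 in NaCl/PBS mice, 5861, 4946 and 7931 in NaCl/DEX mice, 12446, 8215 and 5887 in FeSO4/PBS mice and 6201, 8639 and 8635 in FeSO4/DEX mice. The groups overlapped throughout. The LFC after FeSO4 was 0.34 ± 0.23 (SE, adjusted p = 0.23), between 0.02 without FeSO4/PBS mouse 1 and 0.57 without FeSO4/PBS mouse 3, where it was called. Me1 (ENSMUSG00000032418, chr9:86462646-86578104, minus strand) had normalized counts of 2565, 2092 and 2137 in NaCl/PBS mice, 2028, 2314 and 3813 in NaCl/DEX mice, 4508, 2977 and 2896 in FeSO4/PBS mice and 2481, 2962 and 2591 in FeSO4/DEX mice. All FeSO4/PBS mice were above all NaCl/PBS mice, and the other groups overlapped their controls. The rise after FeSO4 was 1.53-fold (LFC 0.61 ± 0.22 SE, adjusted p = 0.028) and was not called without FeSO4/PBS mouse 1 (LFC 0.38), NaCl/PBS mouse 2 (0.56) or NaCl/PBS mouse 3 (0.57), nor with library size alone (LFC 0.29, adjusted p = 0.24). Me1 shares 2146 exonic bases with Rwdd2a on the opposite strand, which had 21 reads in all libraries against 33059 for Me1.

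Acaca, the rate-limiting step of fatty acid synthesis, did not differ between the groups beyond the spread. Its normalized counts (ENSMUSG00000020532, chr11:84020476-84292477, plus strand) were 2356, 2125 and 2016 in NaCl/PBS mice, 1978, 1871 and 2348 in NaCl/DEX mice, 3143, 1864 and 1741 in FeSO4/PBS mice and 2005, 2395 and 2074 in FeSO4/DEX mice. FeSO4/PBS mouse 1 was above all other mice, and the other FeSO4/PBS mice were below all mice of the other groups. The NaCl/PBS, NaCl/DEX and FeSO4/DEX mice overlapped. LFCs were 0.05 ± 0.19 (SE) after FeSO4, -0.07 ± 0.19 after DEX in NaCl mice and -0.06 ± 0.19 after DEX in FeSO4 mice, with adjusted p-values of 0.82, 0.86 and 0.97. The first of these was -0.27 with library size alone and -0.26 without FeSO4/PBS mouse 1, so that its sign is not fixed by the data.

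Fasn (ENSMUSG00000025153, chr11:120696672-120715995, minus strand) had normalized counts of 14768, 11566 and 13206 in NaCl/PBS mice, 13915, 10834 and 16358 in NaCl/DEX mice, 28119, 14994 and 15820 in FeSO4/PBS mice and 19630, 17387 and 19563 in FeSO4/DEX mice. All 6 FeSO4 mice were above the NaCl/PBS mice, 1 of them by far, and the NaCl/DEX mice overlapped the NaCl/PBS mice. Fasn rose 1.49-fold after FeSO4 (LFC 0.58 ± 0.22 SE, adjusted p = 0.036). That call was lost without FeSO4/PBS mouse 1 (LFC 0.23), NaCl/PBS mouse 2 (0.49) or NaCl/PBS mouse 3 (0.57). It was also lost with library size alone (LFC 0.25, adjusted p = 0.32) and with the libraries of the comparison alone (LFC 0.58, adjusted p = 0.066). DEX had an LFC of 0.06 ± 0.22 (SE, adjusted p = 0.91) in NaCl mice and -0.06 ± 0.22 (SE, adjusted p = 0.97) in FeSO4 mice; the former was -0.10 with library size alone. FeSO4/DEX mice were all above NaCl/DEX mice with an LFC of 0.46 ± 0.22 (SE, adjusted p = 0.099), which was called without a filter on low counts (0.44, adjusted p = 0.012), with the replicate block (0.47, adjusted p = 0.049) and with these libraries alone (0.44, adjusted p = 0.035).

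Elovl6 and Scd1, which act next on palmitate and stearate, moved in opposite directions after FeSO4. Elovl6 (ENSMUSG00000041220, chr3:129326004-129432144, plus strand) had normalized counts of 2975, 3590 and 2839 in NaCl/PBS mice, 3875, 3557 and 5479 in NaCl/DEX mice, 1752, 1463 and 1330 in FeSO4/PBS mice and 1491, 1642 and 1529 in FeSO4/DEX mice. All 6 FeSO4 mice were below all 6 NaCl mice. FeSO4 lowered Elovl6 to 0.484 times the NaCl/PBS level (LFC -1.05 ± 0.16 SE, adjusted p = 0.0001), and FeSO4/DEX mice had 0.361 times the NaCl/DEX level (LFC -1.47 ± 0.16 SE, adjusted p = 8.4e-06). Both calls held with each mouse left out and under each of the other settings. DEX in NaCl mice had an LFC of 0.46 ± 0.16 (SE, adjusted p = 0.075), which was called by DESeq2 (adjusted p = 0.033) and without a filter on low counts (adjusted p = 0.013). It was also called without FeSO4/PBS mouse 1 (LFC 0.48, adjusted p = 0.038) or NaCl/DEX mouse 2 (LFC 0.58, adjusted p = 0.043).

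Scd1 (ENSMUSG00000037071, chr19:44382894-44399154, minus strand) had the most reads of the 10 genes. Its normalized counts were 151716, 86701 and 72348 in NaCl/PBS mice, 116927, 107843 and 187015 in NaCl/DEX mice, 274203, 245481 and 207777 in FeSO4/PBS mice and 134098, 228862 and 235347 in FeSO4/DEX mice. The FeSO4/PBS mice were all above the NaCl/PBS and NaCl/DEX mice, while FeSO4/DEX mouse 1 fell in the range of the NaCl groups. Scd1 rose 2.34-fold after FeSO4 (LFC 1.23 ± 0.29 SE, adjusted p = 0.0027) and kept the call with each mouse left out, with LFCs between 1.02 and 1.61. In the other comparisons the LFC was 0.41 ± 0.29 (SE, adjusted p = 0.41) after DEX in NaCl mice, -0.28 ± 0.29 (SE, adjusted p = 0.88) after DEX in FeSO4 mice and 0.54 ± 0.29 (SE, adjusted p = 0.15) between FeSO4/DEX and NaCl/DEX mice. Without a filter on low counts the first and the last of these were called (0.42, adjusted p = 0.045, and 0.51, adjusted p = 0.0026). Its close paralogs (Scd2, Scd3 and Scd4) could share reads with Scd1. Scd2 had means between 92.5 and 143 normalized counts in the 4 groups, and Scd3 and Scd4 were too low to be tested.

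Gpam (ENSMUSG00000024978, chr19:55055700-55115784, minus strand) had normalized counts of 4560, 3823 and 4736 in NaCl/PBS mice, 3548, 2843 and 4227 in NaCl/DEX mice, 3481, 5105 and 5777 in FeSO4/PBS mice and 5001, 4722 and 5165 in FeSO4/DEX mice. Of these groups, the FeSO4/DEX mice alone lay apart from NaCl/DEX mice, above them. Gpam was 1.40-fold higher there (LFC 0.49 ± 0.18 SE, adjusted p = 0.039). The call was made with 5 of the 12 mice left out in turn and lost with the other 7 (each FeSO4/DEX mouse, NaCl/DEX mouse 1 or 2, and NaCl/PBS mouse 1 or 3), with LFCs between 0.35 and 0.63. It was also lost with library size alone (LFC 0.30, adjusted p = 0.21). The LFC after FeSO4 was 0.13 ± 0.18 (SE, adjusted p = 0.56), and -0.18 with library size alone. After DEX in NaCl mice it was -0.31 ± 0.18 (SE, adjusted p = 0.30).

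**Figure D3:**
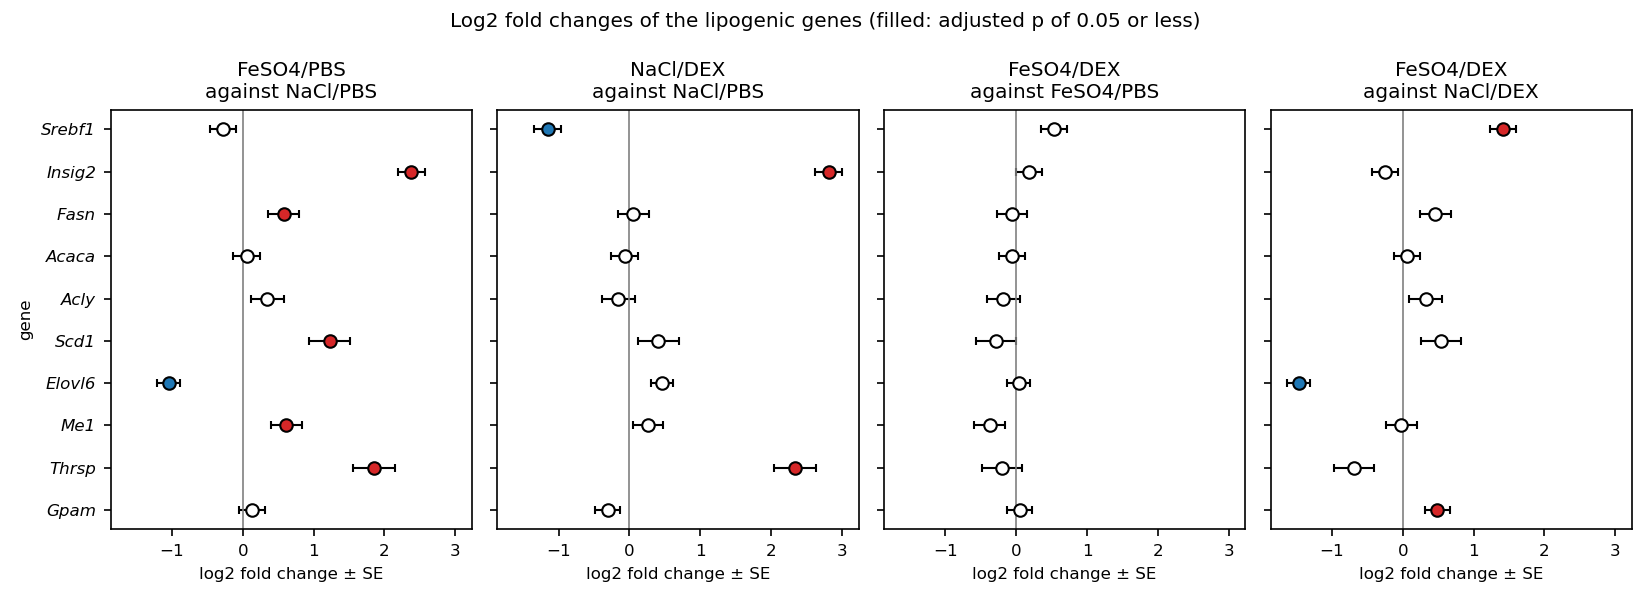
LFCs ± SE (horizontal axes, log2 scale) of the 10 genes (vertical axis) in the 4 comparisons; filled points passed an adjusted p of 0.05, red for higher and blue for lower. The FeSO4/PBS panel has 6 filled points, the panel of DEX in NaCl mice 3, that of DEX in FeSO4 mice 0 and that of FeSO4/DEX against NaCl/DEX 3.

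A test of the difference between the DEX responses called 3 of the 10 genes, Srebf1 as higher and Insig2 and Thrsp as lower, where 2.99% and 3.2% of all tested genes were called (414 and 443, or 575 and 327 with library size alone). The other 7 genes had differences between -0.69 for Scd1 and 0.36 for Gpam that did not pass the test. Among them the SE lay between 0.23 and 0.41. Without a filter on low counts, Scd1 (-0.71, adjusted p = 0.013) and Me1 (-0.65, adjusted p = 0.023) passed it too.

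Per kilobase of exon, the levels spread over 2 orders of magnitude. In NaCl/PBS mice the mean normalized counts per kilobase were 14375 for Scd1, 2996 for Thrsp, 1126 for Fasn, 817 for Srebf1, 478 for Acly, 384 for Gpam, 370 for Me1, 369 for Elovl6, 259 for Insig2 and 118 for Acaca. Gpam, Me1 and Elovl6 did not differ beyond their spread in this order. In FeSO4/PBS mice Insig2 had moved from place 9 to place 4, at 1347 normalized counts per kilobase, and Elovl6 from place 8 to place 9, at 178. Scd1, Thrsp and Fasn kept the first 3 places, at 33651, 10792 and 1678. Exon lengths are those of GENCODE vM39, and the transcripts in use may be shorter.

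Single mice stood out across several genes. FeSO4/PBS mouse 1 was the highest of its group in 8 of the 10 genes (the exceptions were Srebf1 and Gpam, where it was lowest) and the highest of all 12 mice for Fasn, Acaca, Acly, Scd1 and Me1. Similarly, NaCl/DEX mouse 3 was the highest of its group for 8 genes, all but Srebf1 and Insig2, and NaCl/DEX mouse 2 the lowest for 8. Coefficients of variation in FeSO4/PBS mice were 37.4% for Fasn, 34.5% for Acaca, 37.6% for Acly and 52.7% for Thrsp, against 9.06% for Insig2. In FeSO4/DEX mice they were 6.77% for Fasn, 9.66% for Acaca and 15.8% for Thrsp, and 24.3% for Insig2.

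The genes closest in pattern to Srebf1, Insig2 and Fasn were sought among 10195 other genes with a mean of at least 50 normalized counts, as the root mean square difference of centred log2 levels over the 12 libraries. For Insig2 they were Tat (tyrosine aminotransferase, a classic glucocorticoid-induced liver enzyme) at 0.30, Bcl2l1 (which encodes BCL-XL) at 0.31 and Plin5 (a lipid droplet protein) at 0.38, where the median over all these genes was 1.18. Tat had LFCs of 2.48 after FeSO4, 2.23 after DEX in NaCl mice and 0.03 after DEX in FeSO4 mice. For Srebf1 they were Spsb2 at 0.21, Stard13 at 0.23 and Pdgfa at 0.24, against a median of 0.65. Pdgfa had LFCs of -0.13, -0.95 and 0.59 in the same 3 comparisons. For Fasn they were Psma5 and Pcmt1 at 0.15 and Ctsd at 0.16, against a median of 0.47. The lipogenic genes described here were left out of this search, so that none of them could appear in it.

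Of 16 regulators of SREBP, LXR and ChREBP, 5 rose and 4 fell after FeSO4, near the 27.2% and 27.3% of all tested genes. After DEX in NaCl mice 1 rose and 1 fell (6.5% and 7.15% of all tested genes), and between FeSO4/DEX and NaCl/DEX mice 7 were higher and 3 lower (22.4% and 20.9%). Their median LFC was -0.03 for FeSO4 and -0.06 for DEX in NaCl mice. In FeSO4 mice DEX changed 0 by edgeR, with 0 at an unadjusted p below 0.05 and 0 by DESeq2. Insig1, the paralog of Insig2 and itself an SREBP target, had means of 6478 ± 1624 (SD, n = 3) normalized counts in NaCl/PBS mice, 5750 ± 1249 in NaCl/DEX mice, 4563 ± 2440 in FeSO4/PBS mice and 5241 ± 1490 in FeSO4/DEX mice. None of its comparisons passed the test, with an LFC of -0.51 ± 0.33 (SE, adjusted p = 0.21) after FeSO4. Nr1h3, which encodes LXRα, an activator of Srebf1, fell after FeSO4 with an LFC of -0.89 ± 0.11 (SE, adjusted p = 2.1e-05), from 1623 to 873. Srebf2, the cholesterol-related paralog of Srebf1, fell by 0.68 on the log2 scale (adjusted p = 0.00025). Mlxipl, which encodes the carbohydrate-sensing factor ChREBP, had an LFC of -0.04 after FeSO4 and of -0.34 after DEX in NaCl mice, and was called only between FeSO4/DEX and NaCl/DEX mice (LFC 0.46 ± 0.13 SE, adjusted p = 0.012). Lpin1, a phosphatidate phosphatase that also acts on SREBP, had the largest LFC of these 16 genes, after DEX in NaCl mice. Its mean was 4952 ± 1369 (SD, n = 3) normalized counts in NaCl/PBS mice, 27401 ± 803 in NaCl/DEX mice, 13474 ± 3610 in FeSO4/PBS mice and 14682 ± 1632 in FeSO4/DEX mice. DEX raised it in NaCl mice (LFC 2.47 ± 0.21 SE, adjusted p = 5.8e-06) and FeSO4 raised it too (LFC 1.44 ± 0.21 SE, adjusted p = 5.3e-05), with an LFC of 0.12 ± 0.20 after DEX in FeSO4 mice. The remaining genes named by the rule were Mbtps2 (a protease that activates SREBP) at an LFC of 0.64 and Usf1 at -0.61 after FeSO4, Usf1 at -0.61 after DEX in NaCl mice, and Pparg at 1.14 and Fbxw7 at 0.62 between FeSO4/DEX and NaCl/DEX mice.

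Among 14 other genes that supply acetyl-CoA, NADPH and malonyl-CoA, 6 rose and 1 fell after FeSO4 (27.2% and 27.3% of all tested genes), and 0 rose and 1 fell after DEX in NaCl mice (6.5% and 7.15%). Between FeSO4/DEX and NaCl/DEX mice 5 were higher and 1 was lower (22.4% and 20.9%). The median LFC of these genes was 0.41 for FeSO4 and 0.05 for DEX in NaCl mice. DEX changed 0 in FeSO4 mice by edgeR (3 at an unadjusted p below 0.05, 0 by DESeq2). Acacb, the mitochondrial paralog of Acaca whose malonyl-CoA restrains fatty acid oxidation, rose from 2197 ± 120 (SD, n = 3) normalized counts in NaCl/PBS to 4428 ± 525 in FeSO4/PBS mice (LFC 1.01 ± 0.17 SE, adjusted p = 0.0002). Khk (ketohexokinase, which starts fructose breakdown) rose with an LFC of 1.28 and Pgd (an NADPH-forming enzyme of the pentose phosphate pathway) with an LFC of 1.68 (0.96 and still called without FeSO4/PBS mouse 1), and Idh1 fell with an LFC of -0.35. For Khk, Pgd and Mid1ip1, FeSO4/PBS mouse 1 was again the highest of all mice. It had 16990 normalized counts of Khk against 10581 and 9380 in the rest of its group. Its counts were 4051 against 1307 and 1437 for Pgd, and 3931 against 1233 and 1413 for Mid1ip1. In the other lists it was the highest of its group for some genes, as for Pparg. For others it was the lowest, as for Insig1, Acsl1, Acsl3, Lpin1 and Plin4. Mid1ip1, which encodes a Thrsp-related protein that activates acetyl-CoA carboxylase, was called after FeSO4 (LFC 0.95 ± 0.37 SE, adjusted p = 0.041) but not without that mouse (LFC 0.23, adjusted p = 0.47). In NaCl mice DEX lowered it from 1135 ± 102 to 291 ± 87.0 (LFC -1.96 ± 0.39 SE, adjusted p = 0.0036).

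In the elongation and desaturation list, 7 of 16 tested genes rose and 4 fell after FeSO4 (27.2% and 27.3% of all tested genes), and 4 rose and 1 fell after DEX in NaCl mice (6.5% and 7.15%). Between FeSO4/DEX and NaCl/DEX mice 2 were higher and 4 lower (22.4% and 20.9%). The median LFC was 0.17 for FeSO4 and 0.18 for DEX in NaCl mice. DEX changed 0 in FeSO4 mice (0 at an unadjusted p below 0.05 and 0 by DESeq2). Elovl5, which elongates polyunsaturated fatty acids, rose from 8283 ± 270 (SD, n = 3) normalized counts in NaCl/PBS to 20904 ± 2011 in FeSO4/PBS mice (LFC 1.34 ± 0.14 SE, adjusted p = 2.5e-06), opposite to Elovl6. Elovl3 rose with an LFC of 1.06 and Acsl5 (an acyl-CoA synthetase) with one of 0.79. Fads2, the first desaturase of polyunsaturated fatty acid synthesis, fell from 14737 ± 1516 to 7350 ± 1048 (adjusted p = 0.00011), opposite to Scd1. Elovl1 and Acsl3 fell with LFCs of -0.64 and -1.08. After DEX in NaCl mice Acsl1 rose with an LFC of 0.93 and Elovl3 with one of 1.00, and Acsl3 fell by 1.06 on the log2 scale.

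Of 22 tested genes of glycerolipid synthesis and lipid droplets, 12 rose and 2 fell after FeSO4 (27.2% and 27.3% of all tested genes), 8 rose and 1 fell after DEX in NaCl mice (6.5% and 7.15%), and 7 were higher and 3 lower between FeSO4/DEX and NaCl/DEX mice (22.4% and 20.9%). The median LFC was 0.56 for FeSO4 and 0.28 for DEX in NaCl mice. DEX changed 0 in FeSO4 mice (3 at an unadjusted p below 0.05, 0 by DESeq2). Plin2, the main perilipin of hepatocyte lipid droplets, rose from 4485 ± 634 (SD, n = 3) normalized counts in NaCl/PBS to 24982 ± 2469 in FeSO4/PBS mice (LFC 2.48 ± 0.21 SE, adjusted p = 4.6e-07) and had the opposite sign after DEX in NaCl mice (LFC -0.63 ± 0.20 SE, adjusted p = 0.05, a call lost in most of the other settings). Cidec, a droplet fusion protein, was at 11.7 ± 11.7 in NaCl/PBS mice, 29.0 ± 19.4 in NaCl/DEX mice, 1722 ± 245 in FeSO4/PBS mice and 1470 ± 389 in FeSO4/DEX mice. Plin5 and Plin4 rose after each agent, with LFCs of 3.29 and 4.43 after DEX in NaCl mice and 2.77 and 4.38 after FeSO4. Agpat1, an acyltransferase of the step after Gpam, fell from 217 ± 25.2 to 44.4 ± 7.16 after FeSO4 (LFC -2.28 ± 0.18 SE, adjusted p = 2.8e-07). Agpat2 and Agpat3 of the same list were not called after FeSO4. Dgat2, a triglyceride-forming enzyme, fell after FeSO4 (LFC -0.62 ± 0.15 SE, adjusted p = 0.0037) and rose after DEX in NaCl mice (LFC 0.57 ± 0.15 SE, adjusted p = 0.023). Dgat1 of the same list was called higher after FeSO4.

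**Figure D4:**
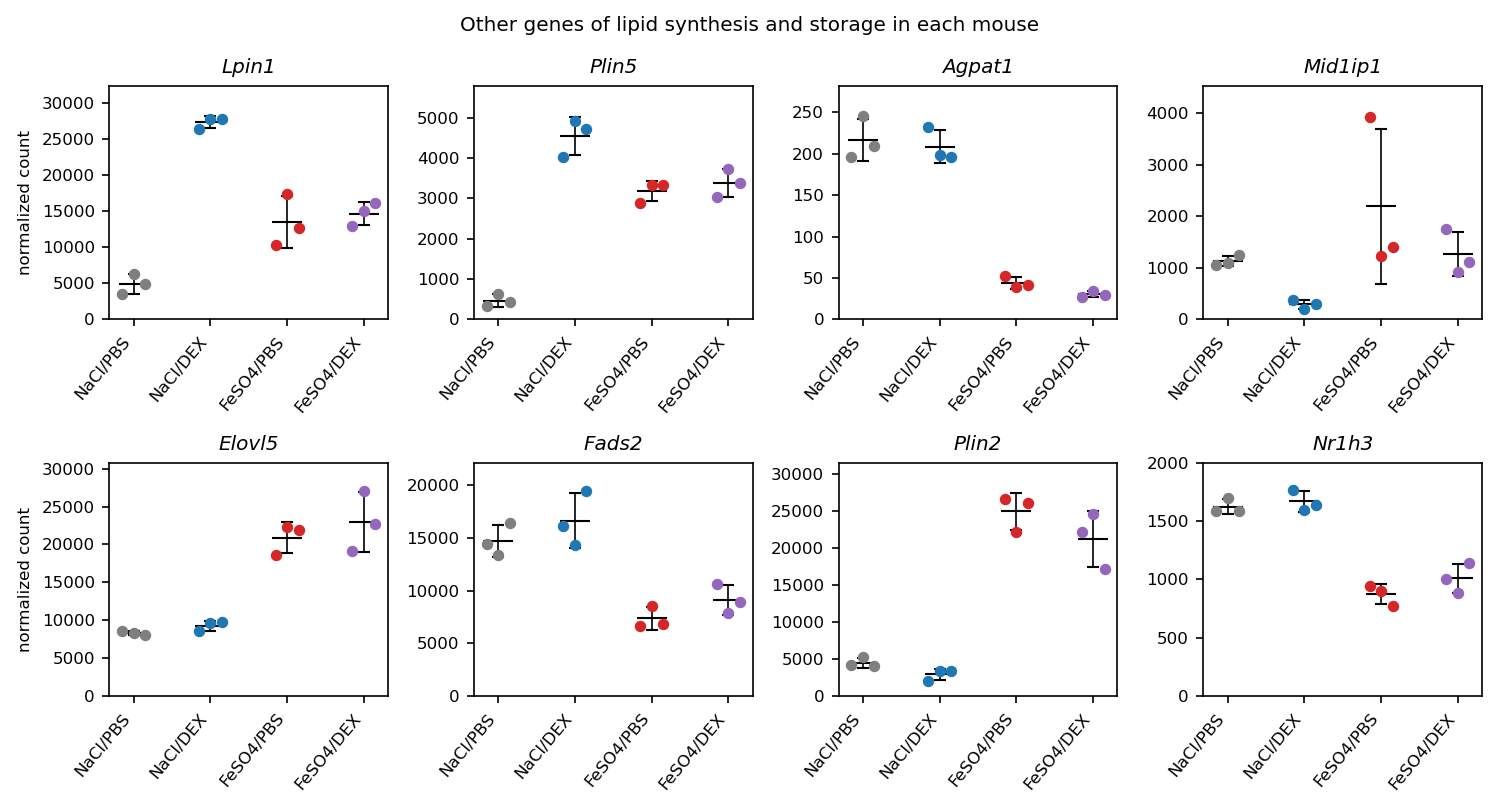
Normalized counts (vertical axes from 0) of 8 other genes of lipid synthesis and storage in each of the 12 mice, with 1 point per mouse and bars for the mean ± SD of each group of 3. Lpin1 and Plin5 were lowest in the NaCl/PBS mice like Insig2, while Elovl5 and Plin2 were higher and Fads2, Nr1h3 and Agpat1 lower in all 6 FeSO4 mice than in all 6 NaCl mice.

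Over the 4 lists together, 68 of 72 genes were tested, of which 30 rose and 11 fell after FeSO4 (27.2% and 27.3% of all tested genes), 13 rose and 4 fell after DEX in NaCl mice (6.5% and 7.15%), 0 were called after DEX in FeSO4 mice (0% of all tested genes), and 21 were higher and 11 lower between FeSO4/DEX and NaCl/DEX mice (22.4% and 20.9%). The difference of the DEX responses was called in 6 of them, 0 higher and 6 lower, against 2.99% and 3.2% of all tested genes. All 6 had a smaller response after FeSO4. The 68 genes had a median LFC of 0.32 for FeSO4 and of 0.07 for DEX in NaCl mice, against -0.02 for all tested genes in both. Several calls named above for single pathway genes were lost with at least 1 of the 12 mice left out. They were those of Idh1 (lost with 3 of 12, LFCs between -0.39 and -0.28), Elovl3 (1 of 12, FeSO4/PBS mouse 3, between 0.70 and 1.29) and Mid1ip1 (6 of 12, between 0.23 and 1.24) after FeSO4. After DEX in NaCl mice they were those of Usf1 (3 of 12, between -0.71 and -0.53), Elovl3 (8 of 12, between 0.74 and 1.23), Acsl3 (5 of 12, between -1.11 and -0.94), Dgat2 (5 of 12, between 0.46 and 0.72) and Plin2 (11 of 12, between -0.75 and -0.41). The call of Mlxipl between FeSO4/DEX and NaCl/DEX mice was lost with 2 of 12, at LFCs between 0.38 and 0.56.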

How the data were processed

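Liver RNA of 12 mice was sequenced, 3 per group. Per the labels and the study's methods, the authors made stranded mRNA libraries, mapped the reads to mm39 with STAR 2.7.10b after FastQC (both in the submitters' processing notes) and counted reads per gene. The authors deposited whole-number raw counts for 55414 Ensembl genes, without normalization, of which 30401 had no count in any library. Which strand setting was used for counting is not given in the sources used here. Symbols and exons came from GENCODE vM39 on GRCm39, the same assembly as mm39, for 54749 identifiers. The study's methods name a different GENCODE release for the splice junctions given to STAR, which also made the counts per gene.

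From the counts, a filter on low counts (edgeR's filterByExpr) and TMM factors were applied with R 4.3.3 and edgeR 4.0.16. Group means were then fitted to all 12 libraries in 1 quasi-likelihood model, with a biological coefficient of variation of 0.169. LFCs used a prior count of 0.125. Each SE was worked back from the test, as the size of the LFC divided by the square root of the F statistic. A call needed a p of at most 0.05 after Benjamini-Hochberg adjustment over 13857 genes. Normalized counts are counts scaled by the TMM effective library size to the mean library. With 3 mice per group no exact permutation test of a single gene can go below p = 0.1, so none was used. The model was tested on simulated data. No 2 libraries of a group were alike within counting error, and each counted as 1 mouse.

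The 10 genes, the pathway and marker lists (of which 1 symbol had no row, and 1 pathway gene is not reported here) and the motifs were chosen with earlier results of these data known. All 10 genes were named, together with 7 regulators and enzymes whatever their values and, per list and comparison, up to 2 called genes with the largest LFC each way and a mean of at least 50 normalized counts in the higher group. Alternatives were DESeq2 1.42.0, its size factors, library size alone, other filters, the replicate number as a block, the libraries of a comparison alone, an LFC beyond 1, and each mouse left out.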

Additional observations from a re-analysis of the deposited data

Results flagged for a closer look

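The DEX response differed between FeSO4 and NaCl mice in 3 of the 10 lipogenic genes, by the test of the difference itself in edgeR's model (adjusted p of 0.05 or less over all tested genes). By the same test 2.99% of all tested genes were called higher and 3.2% lower. The DEX response in FeSO4 mice minus that in NaCl mice was 1.70 for Srebf1, -2.63 for Insig2 and -2.53 for Thrsp, as LFCs. The sign was the same with each mouse left out, with LFCs from 1.53 to 1.86, from -2.87 to -2.48 and from -2.83 to -2.07.

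The same test was passed by 6 of the 68 tested genes of the pathway lists, all lower and with a smaller response after FeSO4 (3.2% of all tested genes were called lower). The difference was -2.34 for Lpin1, -1.97 for Gpat4 (a glycerol-3-phosphate acyltransferase of the endoplasmic reticulum, adjusted p = 0.00089), -4.65 for Plin4, -3.20 for Plin5, -0.51 for Hacd2 (a dehydratase of fatty acid elongation, adjusted p = 0.043) and -0.78 for Pnpla2 (the triglyceride lipase ATGL, adjusted p = 0.042). In FeSO4 mice the LFCs by DEX of these 6 genes lay between -0.21 for Plin4 and 0.22 for Gpat4. After FeSO4 in PBS mice their LFCs lay between 0.25 for Hacd2 and 4.38 for Plin4, with 2.41 for Pnpla2. Between FeSO4/DEX and NaCl/DEX mice the LFC was 1.63 for Pnpla2 and between -0.90 and -0.27 for the others. For Gpat4, Hacd2 and Pnpla2 no values with mice left out are given here. No outlier test was run on single mice, since the groups hold 3.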

How the results depend on the processing

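Of the 50 LFCs of the 10 genes, 15 were called. Over 940 values under the alternatives, 859 kept their sign and their side of the threshold, 17 lost the call, 24 gained it and 40 changed sign, none of the latter called and none above 0.301 in size. The counts of called genes moved by over 1.5 times as follows, and the cause was not tested. After FeSO4 in PBS mice, 3 were higher in place of 5 with library size alone and with an LFC beyond 1, and 2 lower in place of 1 with library size alone. After DEX in NaCl mice, 4 were higher in place of 2 without a filter on low counts, and after DEX in FeSO4 mice 1 in place of 0 (Srebf1, where 99 and 71 of all genes were called). Between FeSO4/DEX and NaCl/DEX mice, 1 was higher in place of 2 with library size alone and with an LFC beyond 1 and 4 without a filter, while in place of 1 lower there were 2 with DESeq2, without a filter and with these libraries alone and 3 with library size alone. For the difference of the responses 4 were lower in place of 2 without a filter.

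With each mouse left out in turn, 3 to 6 were higher after FeSO4 and 2 to 3 after DEX in NaCl mice. Between FeSO4/DEX and NaCl/DEX mice 1 to 3 were higher and 1 to 2 lower. Replicate numbers did not pair the mice (18 same-numbered pairs, correlations of deviations between -0.09 and 0.13, 2 over 0.1). The replicate block called the same numbers in each comparison, except 3 higher in place of 2 between FeSO4/DEX and NaCl/DEX mice, where Fasn was added (LFC 0.47, adjusted p = 0.049).

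Signs changed with library size alone for Fasn after DEX in NaCl mice (-0.10), for the differences of the responses of Fasn (0.023) and Acly (0.11), for Acaca after FeSO4 in PBS (-0.27) and DEX (-0.14) mice and for Gpam after FeSO4 (-0.18). The difference for Acaca was -0.0345 with DESeq2, -0.0316 with its size factors and -0.0092 without a filter. With mice left out in turn, LFCs that changed sign spanned -0.26 to 0.21 after FeSO4, -0.17 to 0.0065 and -0.22 to 0.24 after DEX in NaCl and FeSO4 mice, -0.053 to 0.16 between FeSO4/DEX and NaCl/DEX mice and -0.16 to 0.28 for the difference of the responses for Acaca. For Fasn they spanned -0.091 to 0.20 and -0.22 to 0.27 after DEX in NaCl and FeSO4 mice and -0.28 to 0.19 for the difference, and for Acly -0.41 to 0.13 after DEX in FeSO4 mice and -0.26 to 0.26 for the difference. After DEX in FeSO4 mice they also spanned -0.039 to 0.33 for Insig2, -0.056 to 0.13 for Elovl6, -0.48 to 0.29 for Thrsp and -0.15 to 0.20 for Gpam. Me1 spanned -0.061 to 0.44 after DEX in NaCl mice and -0.20 to 0.30 between FeSO4/DEX and NaCl/DEX mice, and Gpam -0.022 to 0.32 after FeSO4.

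The 3 mice per group limit what can be detected: with SEs of 0.16 to 0.30, the smallest LFC called between groups among the 10 genes was 0.49. The counts cannot separate promoters or transcripts of a gene, and livers were taken at 1 time point.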
